A study of Homo sapiens and Mus musculus with 27 samples.

Results

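LM2 breast cancer cells with low expression of LifeAct were compared with LM2 cells negative for LifeAct, 3 libraries against 3, over all genes that passed a filter on low counts. These 6 libraries are 6 of the 27 samples of a study of the MKL1/SRF pathway in breast cancer metastasis, whose other samples are 3 LM2 libraries with high expression of LifeAct and 18 LM2 and 4T1 libraries with a control, MKL1 or caMKL1 construct. All 9 LifeAct libraries come from 1 line labelled wild type and 1 experiment, and their RNA was depleted of ribosomal RNA. The negative group carries the treatment label control, and the low group that of low LifeAct expression. How the cells were separated, where low ended and high began, whether negative cells had received a construct, and whether replicates came from separate cultures are not given in the labels. P-values therefore measure only the spread between these samples, which may be technical. Of 59453 gene names, 21869 passed the filter and were tested. The construct itself has no row in the count table, so its level, and with it the labels, could not be checked here.

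LM2 is a derivative of the triple-negative line MDA-MB-231 that was selected in mice for growth in the lung. LifeAct is a short actin-binding peptide that, fused to a fluorescent protein, marks actin filaments in living cells. Monomeric actin holds the coactivator MRTFA, also called MKL1, away from the nucleus, and when monomers are used up in filaments MRTFA joins SRF on the promoters of cytoskeletal genes. The cell cycle has its own transcription programme. E2F factors switch on the enzymes that copy DNA as cells leave G1, and a later wave, bound through CCAAT boxes and cell cycle homology regions, makes the proteins of mitosis. Integrins, the other group that stands out below, are the paired receptors by which cells hold on to the extracellular matrix.

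Library totals ran from 15625737 to 22497971 counts in the 6 libraries. In a principal component analysis of the 500 most variable genes over the 6 libraries, the first axis carried 80.6% of the variance, with the 3 negative libraries at 1 end and the 3 low libraries at the other. The genes were picked by their variance in these same libraries, so this share does not hold for all genes. Replicate pairs differed by a chi-square per gene of 1.39 to 1.62 among low libraries and 1.64 to 4.13 among negative libraries, where replicate 3 was the more distant, and the biological coefficient of variation was 0.0439. Of 14 genes listed as markers of the line's identity, 12 were measured. By the test given below 5 rose, 2 fell and 5 did not pass. CD44 was at 475 to 487 CPM (gene counts relative to the TMM-scaled library size) in negative and 518 to 520.5 in low libraries, and the estrogen receptor gene ESR1, the progesterone receptor gene PGR and the cadherin gene CDH1 stayed under 1 CPM in all 6. The pair that fell were VIM, at 1610.5 to 1762 against 1298 to 1315 CPM, and S100A4, at 463 to 483 against 261 to 267. ERBB2 was at 54.6 to 56.4 against 65.2 to 69.3 CPM and GATA3 at 5.18 to 5.33 against 7.32 to 8.82. EPCAM was at 5.69 to 5.93 against 4.76 to 6.69 CPM and FOXA1 at 3.38 to 3.79 against 3.26 to 3.33. Summed CPM of 6 leukocyte markers was 2.46 to 3.67 in negative and 1.09 to 1.35 in low libraries. Among them PTPRC was at 1.81 to 3.12 against 0.595 to 0.652 CPM, and CD3E was at 0 in the low group. For 5 endothelial markers the sum was 96.9 to 100.3 against 35.5 to 37.5, most of it PECAM1. VWF was at 3.11 to 3.79 against 2.43 to 2.74 CPM, and KDR at 2.14 to 2.55 against 3.13 to 3.83. CDH5 and TEK were at no more than 0.533 CPM. For 6 fibroblast markers the sum was 34.9 to 38.2 against 27.6 to 29.8. PDGFRB was at 23.3 to 24.8 against 14.8 to 16.4 CPM, and COL1A1 at 9.11 to 12.3 against 10.9 to 12.4. PDGFRA was at no more than 0.109 and DCN at no more than 0.129 CPM. The part of such cells in the results below was not tested.

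A large share of tested genes differed between the groups. By edgeR's quasi-likelihood test with Benjamini-Hochberg adjustment at 0.05, 5677 genes (26.0% of those tested) were higher and 5169 (23.6%) were lower in LifeAct low cells, 49.6% in all, and 11023 did not pass. Most differences were small. Changes of at least 2-fold were seen for 1193 genes that rose (5.46%) and 1014 that fell (4.64%), and the median log2 ratio of all tested genes was -0.01. Every low library lay above every negative library for 28.9% of tested genes and below for 27.4%. These shares are the background for the gene lists below. Genes of DNA copying, of mitosis and of histones rose almost uniformly, most cytokine and interferon-stimulated genes rose, and integrins, MAPK feedback genes, hypoxia genes and cholesterol synthesis genes mostly fell.

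**Figure D1:**
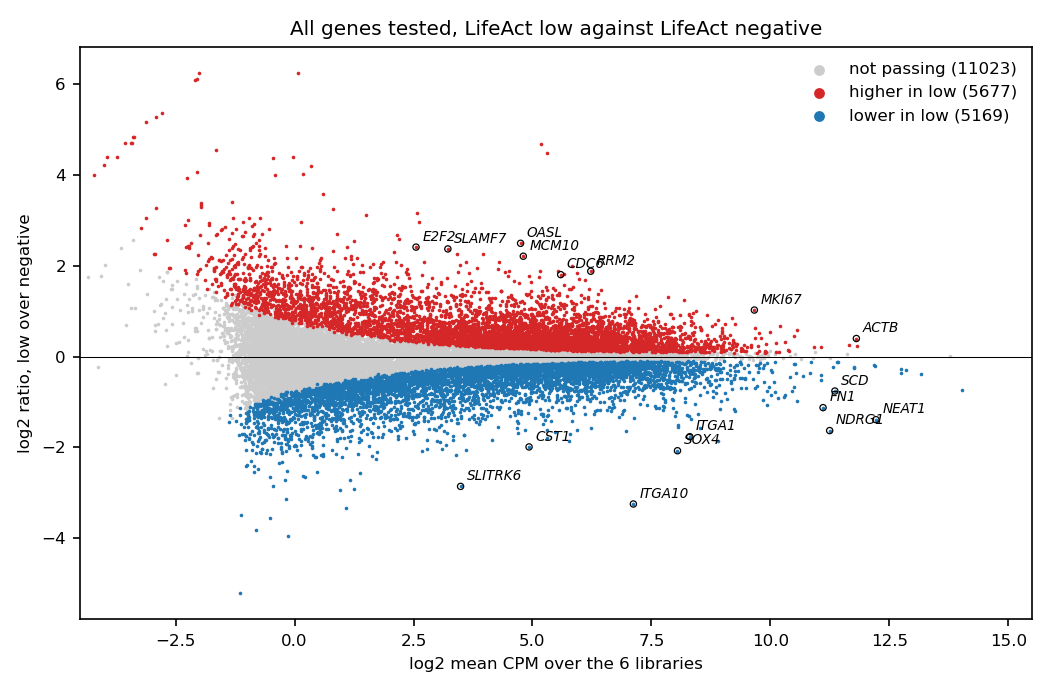
Log2 ratio of LifeAct low over negative (vertical axis) against mean level in log2 CPM (horizontal axis), with 1 point for each of 21869 tested genes. Coloured points passed an adjusted p of 0.05, 5677 above and 5169 below the zero line, and grey points (11023) did not. The genes with names include ITGA10 and SLITRK6, at log2 ratios of -3.25 and -2.86. The lowest ratio of all tested genes was -5.21.

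Genes of DNA replication and nucleotide synthesis rose almost without exception. Of 48 listed genes, all of them measured, 47 rose, none fell and 1 did not pass, and the median log2 ratio was 1.27. RRM2, the small subunit of the ribonucleotide reductase that makes deoxynucleotides (chr2:10120698-10211725), was at 30.5, 33.1 and 32.6 CPM in the negative libraries and 119, 116 and 118 CPM in the low libraries. CDC6, which loads the MCM helicase onto replication origins (chr17:40287879-40304657), was at 21.2, 23.4 and 20.04 CPM against 73.6, 76.98 and 74.5 CPM. For both genes the 3 low libraries lay together and far above all negative libraries. The log2 ratio was 1.88 (SE 0.05) for RRM2, a 3.67-fold rise (adjusted p = 1.55e-21), and 1.80 (SE 0.06) for CDC6, a 3.49-fold rise (adjusted p = 7.78e-20). Scaled by exon length, RRM2 went from 3.50 to 12.8 RPKM (CPM per kilobase) and CDC6 from 4.05 to 14.1, so the pair stood at like levels. In bulk RNA, more cells in S phase and more transcript in each such cell cannot be told apart.

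The helicase and its loaders rose as a block. MCM4, a subunit of the MCM ring, went from 32.5 ± 1.30 to 105 ± 2.66 CPM (mean ± SD, n = 3), a log2 ratio of 1.69 (SE 0.05). MCM10, which helps to start the helicase, went from 9.93 ± 1.65 to 46.1 ± 2.49 CPM and was among the 10 largest rises of genes with a mean of at least 5 CPM, with a log2 ratio of 2.21 (SE 0.08). CLSPN, the fork protein claspin, went from 23.0 ± 2.19 to 91.2 ± 2.19 CPM, with a log2 ratio of 1.99 (SE 0.06). Other members were named after their values were seen. PCNA, the sliding clamp, had a log2 ratio of 1.19, CDC45 of the helicase 1.94, RRM1, the large subunit of the reductase, 1.04, and TYMS, which makes thymidylate, 1.11. The smallest value belonged to POLA2, the B subunit of the primase-polymerase, at 5.10, 4.595 and 6.29 against 5.80, 6.96 and 7.08 CPM, a log2 ratio of 0.31 (SE 0.13) that missed the threshold (adjusted p = 0.0553). FAM111B, a protease gene known for its rise in S phase, was another of the 10 largest rises, from 3.71 ± 0.343 to 17.7 ± 1.54 CPM.

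Promoters of such genes are known for E2F sites and CCAAT boxes, and 3 are printed here because they carry letters of either kind. RRM2 and CDC6 held CCAAT boxes but no match of the E2F letters searched, and MCM6 held both. Each is the 250 bases before the RefSeq start site on GRCh38.p14, read 5′ to 3′ on the gene's strand. Capitals mark CCAAT or its reverse complement in RRM2 (chr2:10122489-10122738, plus strand) and CDC6 (chr17:40287629-40287878, plus strand), and E2F matches in MCM6 (chr2:135876444-135876693, minus strand). MCM6, another MCM ring subunit, was chosen after its sequence and values were seen.
RRM2: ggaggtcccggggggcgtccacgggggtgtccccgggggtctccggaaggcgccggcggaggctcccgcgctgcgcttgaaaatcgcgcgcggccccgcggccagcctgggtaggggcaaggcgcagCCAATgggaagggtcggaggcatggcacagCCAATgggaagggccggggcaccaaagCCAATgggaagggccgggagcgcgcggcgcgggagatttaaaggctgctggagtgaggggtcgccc
CDC6: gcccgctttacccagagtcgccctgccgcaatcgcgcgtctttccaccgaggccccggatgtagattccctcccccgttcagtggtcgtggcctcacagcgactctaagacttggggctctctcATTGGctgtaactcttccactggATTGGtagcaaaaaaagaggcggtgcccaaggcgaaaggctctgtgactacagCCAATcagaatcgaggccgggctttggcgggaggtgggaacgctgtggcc
MCM6: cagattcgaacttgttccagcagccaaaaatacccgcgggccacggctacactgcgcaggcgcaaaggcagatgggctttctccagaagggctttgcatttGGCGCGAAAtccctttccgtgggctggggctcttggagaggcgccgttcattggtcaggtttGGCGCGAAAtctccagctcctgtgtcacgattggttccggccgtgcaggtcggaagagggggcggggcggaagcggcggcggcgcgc
RRM2 held 3 CCAAT boxes in 1 orientation, with first bases 123, 93 and 66 bases before the start, and CDC6 held 3, a pair on the reverse strand that begins 126 bases before the start and 1 on the forward strand at 50. In MCM6 each of the 2 E2F blocks is a pair of overlapping matches (GGCGCGAA and GCGCGAAA), with first bases at 149 and 148 and at 87 and 86 bases before the start. MCM6 went from 22.5, 22.7 and 23.5 CPM in negative to 54.2, 54.1 and 55.3 CPM in low libraries, with no overlap and a log2 ratio of 1.25 (SE 0.06). RefSeq start sites need not be those of the Ensembl models in which reads were counted.

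Repair genes that act at replication forks rose in the same way. Of 20 listed, 19 rose, none fell and 1 did not pass, with a median log2 ratio of 1.09. EXO1, an exonuclease of mismatch repair and resection, went from 8.77, 10.5 and 11.4 CPM to 33.7, 32.6 and 38.5 CPM. FANCD2 and FANCI, the paired proteins that are ubiquitinated in the Fanconi anemia pathway, had log2 ratios of 1.32 (SE 0.07) and 1.08 (SE 0.05). For these 3 genes no low library reached down to a negative library. ATR, the checkpoint kinase, did not pass, at 67.4 against 74.2 CPM and a log2 ratio of 0.14 (SE 0.06) at adjusted p = 0.0510.

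Mitotic genes rose too, by less than the replication genes in the median. Of 36 listed, 35 rose, none fell and 1 did not pass, and the median log2 ratio was 0.83. CDC20, the activator of the anaphase-promoting complex, went from 90.6, 86.5 and 77.5 CPM to 178, 175 and 180.1 CPM, a log2 ratio of 1.07 (SE 0.05). MKI67, the gene of the Ki-67 proliferation marker, went from 541, 547 and 517 CPM to 1087, 1082 and 1094 CPM, a log2 ratio of 1.02 (SE 0.04). For both, the low libraries lay close together and did not overlap the negative ones. FOXM1, a transcription factor of the G2 programme, and TPX2, which activates Aurora A on the spindle, had log2 ratios of 1.01 (SE 0.05) and 0.93 (SE 0.04). NUSAP1, a spindle protein, did not pass, but with 1.45 and 1.91 CPM it was counted at a very low level (adjusted p = 0.255). The CDC20 promoter (chr1:43358731-43358980, plus strand) is printed because it holds both motifs of the mitotic wave. Capitals mark 2 cell cycle homology regions (TTTGAA or its reverse complement), with first bases 178 and 65 bases before the start, and 2 CCAAT boxes at 100 and 55.
CDC20: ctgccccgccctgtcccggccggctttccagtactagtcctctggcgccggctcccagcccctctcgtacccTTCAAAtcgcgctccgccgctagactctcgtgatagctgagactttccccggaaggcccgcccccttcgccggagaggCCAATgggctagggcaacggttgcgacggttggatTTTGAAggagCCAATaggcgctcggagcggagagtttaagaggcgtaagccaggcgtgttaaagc

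The regulators of the G1/S switch divided. Of 28 listed genes, 21 rose, 6 fell and 1 did not pass, with a median log2 ratio of 0.43. The activating E2F genes were among those that rose. E2F1 went from 14.7, 14.2 and 12.6 CPM to 49.1, 48.4 and 44.8 CPM, a log2 ratio of 1.78 (SE 0.08), and E2F2 from 1.78, 1.94 and 1.83 CPM to 10.2, 10.3 and 9.12 CPM, a log2 ratio of 2.41 (SE 0.14) and 1 of the 10 largest rises. In both, the low libraries were all above the negative ones, as the rule for the largest rises required of E2F2. CDC25A, the phosphatase that frees CDK2, and MYBL2, the B-Myb factor that links the S and G2 waves, had log2 ratios of 1.93 (SE 0.08) and 1.89 (SE 0.07). CCNE1 and CCNE2, the E-type cyclins, had log2 ratios of 0.98 and 1.27, and CCND1, cyclin D1, 0.59. Those that fell were CDKN1C and CDKN1B, the CDK inhibitors p57 and p27, at -1.13 and -0.37, RBL2, the pocket protein of resting cells, at -0.56, E2F5, its E2F partner, at -0.23, CCND2, cyclin D2, at -0.27, and E2F7, an atypical E2F that represses, at -0.78. E2F7 was abundant, at 499.6, 523 and 528 CPM in negative and 302, 302 and 302 CPM in low libraries. Cyclins, CDK inhibitors, RBL2 and E2F5 were named after their values were seen.

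**Figure D2:**
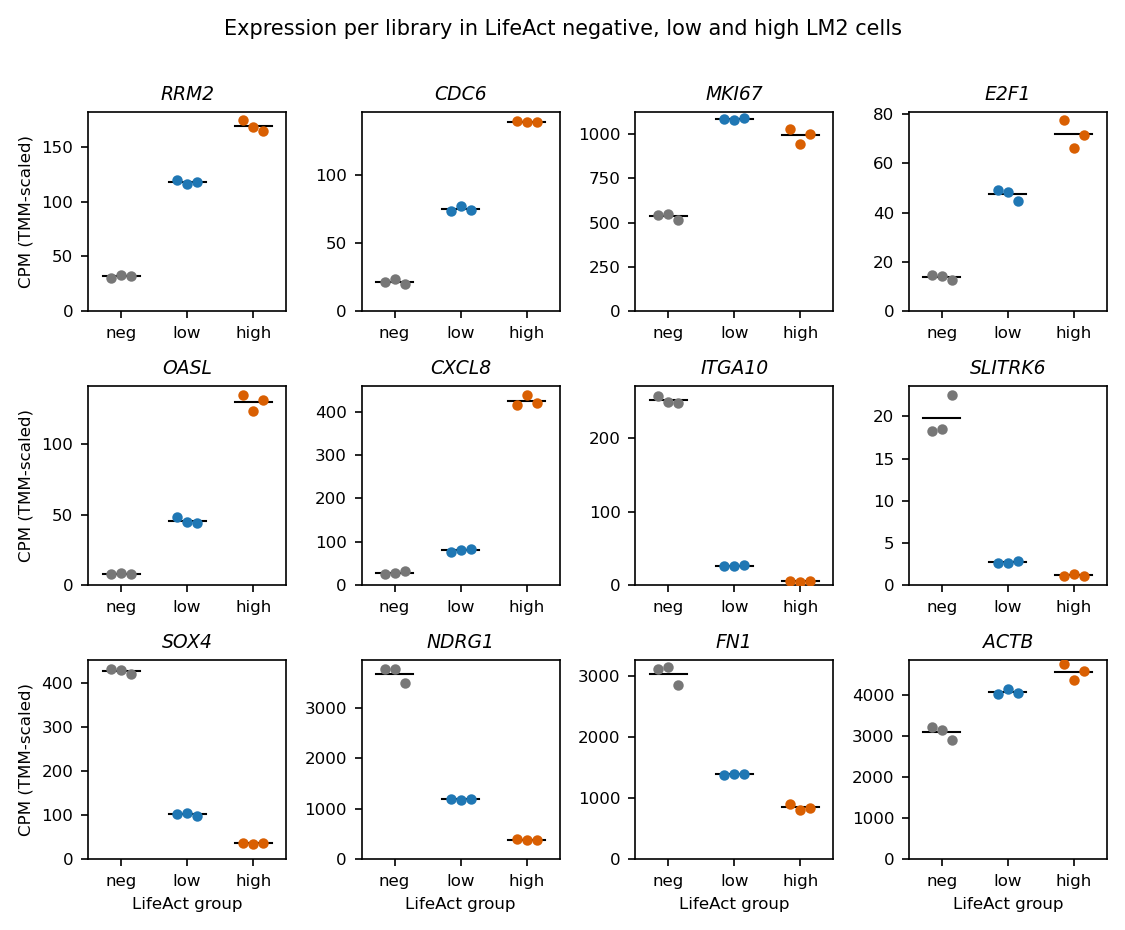
CPM of 12 genes in each of the 3 LifeAct negative, 3 low and 3 high libraries, with 1 point for each library and a line at the group mean, on linear axes that start at 0. RRM2 and CDC6 climb from negative to low to high, MKI67 is near 1000 CPM in both LifeAct groups, and ITGA10 drops from about 250 CPM to under 30 in the low libraries.

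Replication-dependent histone genes, whose messages end in a stem-loop in place of a poly(A) tail and are made mainly while DNA is copied, can be counted in these libraries, whose RNA was not selected for poly(A). Of 55 listed genes 34 passed the filter, and of these 33 rose, none fell and 1 did not pass, with a median log2 ratio of 1.24. H2BC11, an H2B gene, was at 38.7, 39.3 and 36.6 CPM in negative and 102, 106 and 113 CPM in low libraries, and H3C2, an H3 gene, at 84.5, 82.5 and 79.1 CPM against 209, 215 and 199.5 CPM. The groups were far apart for both, with log2 ratios of 1.49 (SE 0.06) and 1.34 (SE 0.04). H4C14 and H4C15, a pair of H4 genes, were among the same 10 largest rises, from 1.39 to 10.9 CPM and from 1.19 to 10.7 CPM. Histone genes are near-identical copies, and reads that fit several can be left out or split, so the values of single copies are uncertain. H4C9, a further H4 gene, did not pass, at 8.34 against 9.05 CPM (adjusted p = 0.455). As a class, histone genes took 0.184% ± 0.00386 of all counts in negative and 0.357% ± 0.00356 in low libraries (SD, n = 3), with no overlap between the libraries of the groups. An exact permutation test of 3 against 3 cannot give a p under 0.1, so no test of this share is given.

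The H2BC11 promoter (chr6:27132796-27133045, minus strand) is shown as 1 of 20 histone promoters, of 50 at hand, with an E2F match. Capitals mark overlapping E2F matches with first bases 206 and 205 bases before the start and 4 CCAAT boxes at 210, 156, 120 and 80, of which the first shares a base with the E2F block.
H2BC11: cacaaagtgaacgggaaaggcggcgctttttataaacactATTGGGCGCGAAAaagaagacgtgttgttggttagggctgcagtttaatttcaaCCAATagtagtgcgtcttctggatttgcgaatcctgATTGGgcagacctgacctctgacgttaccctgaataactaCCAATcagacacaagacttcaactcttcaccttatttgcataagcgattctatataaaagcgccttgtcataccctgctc

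**Figure D3:**
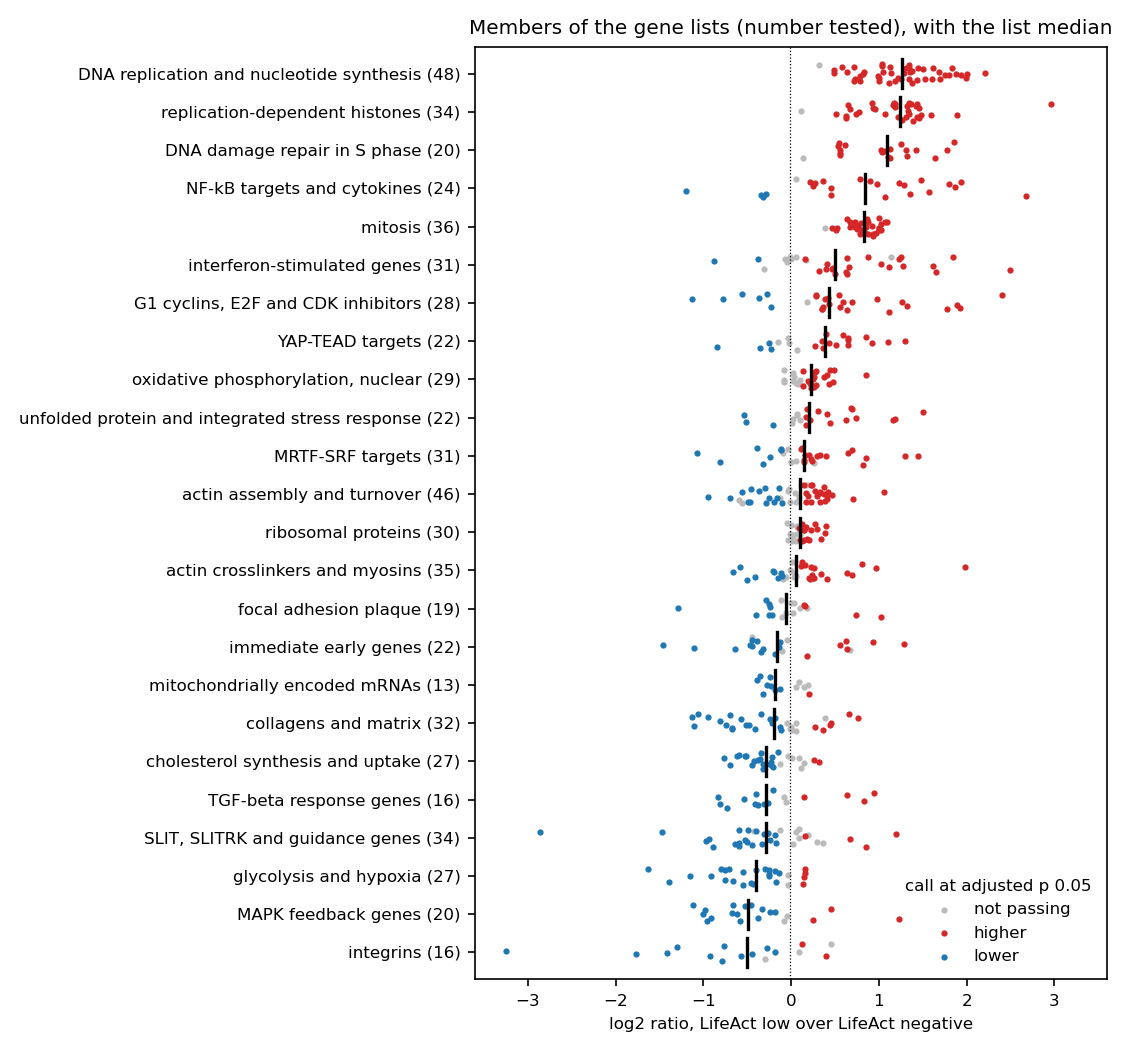
Log2 ratio of LifeAct low over negative for the tested members of 24 gene lists, with 1 point per gene coloured by whether it rose, fell or did not pass, a black bar at the list's median and a dotted line at the median of all tested genes (-0.01). Nearly all points of the replication, repair, mitosis and histone lists lie to the higher side, whereas integrins, MAPK feedback genes, and glycolysis and hypoxia genes lie mostly to the lower side.

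Integrin genes were mostly lower in LifeAct low cells. Of 20 listed, 16 were measured, and of these 11 fell, 2 rose (1 without low replicate 1) and 3 did not pass, with a median log2 ratio of -0.51. ITGA10, the alpha 10 chain of a collagen receptor (chr1:145891208-145910111), had the largest fall among genes above the naming level of 5 CPM. It was at 258, 249 and 248 CPM in negative and 26.7, 25.6 and 27.2 CPM in low libraries, with nothing between, a log2 ratio of -3.25 (SE 0.05) and a 9.49-fold fall (adjusted p = 2.21e-26). ITGA1, the alpha 1 chain of another collagen receptor, went from 469, 477 and 521 CPM to 146, 143 and 142 CPM, a log2 ratio of -1.76 (SE 0.04). ITGA2, the alpha 2 chain of the third, had a log2 ratio of -0.76 (SE 0.03), and ITGA11, the alpha 11 chain of the fourth, -0.79. All chains of the collagen-binding set were thus lower, as was their shared partner ITGB1, with a log2 ratio of -0.18. ITGB4, the beta 4 chain of the laminin receptor of hemidesmosomes, and ITGB5, a vitronectin receptor chain, had log2 ratios of -1.30 (SE 0.05) and -0.92 (SE 0.04). The pair that rose were ITGA3, of another laminin receptor, at 0.13, and ITGB2, the leukocyte chain, at 0.40. ITGA7 and ITGB7 did not pass, with 0.45 and -0.30. ITGA11, ITGB1, ITGA3 and ITGB2 were named after their values were seen.

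SLITRK6, a transmembrane protein with leucine-rich repeats known from neurite growth and the inner ear (chr13:85792790-85806683), fell next most. It was at 18.3, 18.5 and 22.5 CPM in negative and 2.63, 2.68 and 2.82 CPM in low libraries, a log2 ratio of -2.86 (SE 0.13) and a 7.25-fold fall (adjusted p = 3.80e-17). Its counts summed over libraries were 962 and 158, against 12274 and 1545 for ITGA10, and its SE is the larger. Among 40 SLIT, SLITRK, semaphorin, ephrin and other guidance genes, 34 were measured, 20 fell, 4 rose and 10 did not pass, with a median of -0.29. PLXND1 and NRP1, semaphorin receptors, had log2 ratios of -0.97 (SE 0.04) and -0.64 (SE 0.03), and SEMA7A, a membrane-bound semaphorin, 0.67 (SE 0.05). Over the 9 LifeAct libraries, the genes whose log2 CPM followed SLITRK6 most closely out of 11974 compared were ITGA1 and ITGA2 (Pearson r = 0.999 for both), KLHL24, LPIN2 and PPP2R2C (r = 0.998 for each). They were picked for this likeness, and all libraries of a group share its level, so r is given as a description.

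The promoters of both genes are printed for comparison. In ITGA10 (chr1:145910051-145910300, minus strand) capitals mark the reverse complement of the TEAD motif GGAATG with its first base 91 bases before the start and that of CCAAT at 62, and in SLITRK6 (chr13:85799420-85799669, minus strand) an AP-1 match (TGAGTCA) at 20.
ITGA10: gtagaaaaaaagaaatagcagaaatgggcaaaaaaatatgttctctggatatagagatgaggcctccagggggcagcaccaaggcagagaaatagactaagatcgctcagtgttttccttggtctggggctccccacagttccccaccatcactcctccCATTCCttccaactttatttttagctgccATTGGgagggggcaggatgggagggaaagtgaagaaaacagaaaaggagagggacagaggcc
SLITRK6: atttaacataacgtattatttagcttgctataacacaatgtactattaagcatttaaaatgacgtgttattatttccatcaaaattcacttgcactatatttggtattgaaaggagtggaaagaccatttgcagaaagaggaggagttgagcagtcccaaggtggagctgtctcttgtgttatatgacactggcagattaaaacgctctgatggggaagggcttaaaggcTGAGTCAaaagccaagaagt
These are letters only, with no measurement of binding. Of all 27305 promoters, searched over 300 bases (those printed and the next 50), 14.05% held the TEAD letters and 4.92% the AP-1 letters on either strand.

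The other large falls were of varied kinds. SOX4, a SOX transcription factor, went from 432, 431 and 421 CPM to 102.8, 105 and 97.7 CPM, a log2 ratio of -2.07 (SE 0.04). RAB17, a small GTPase of epithelial traffic, had a log2 ratio of -2.17 (SE 0.12), SLC30A10, a manganese exporter, -2.04 (SE 0.15), and CST1, a secreted cystatin, -1.99 (SE 0.10). Absence of overlap between the groups was a condition for a place among the 10 largest falls. The long noncoding RNA LINC01844 (-2.03) and 2 unnamed clones were also among the 10 largest falls.

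Genes of the focal adhesion plaque, which ties integrins to actin, divided. Of 20 such genes, 19 were measured, 7 fell, 4 rose and 8 did not pass, with a median of -0.05. TNS4, a tensin, had the largest fall, with a log2 ratio of -1.28 (SE 0.08), while TNS1, another tensin, and TLN2, a talin, rose with 0.74 (SE 0.09) and 1.02 (SE 0.08). TLN1, PXN and PTK2, the genes of talin 1, paxillin and focal adhesion kinase, were at 0.02, 0.03 and -0.05 and did not pass. They were named after their values were seen.

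MRTF-SRF genes, the pathway of the study's title, gave a mixed and mostly small response. Of 34 listed, 31 were measured, 17 rose, 7 fell and 7 did not pass, with a median log2 ratio of 0.15. MRTFA itself was at 31.1, 28.2 and 25.7 CPM in negative and 33.1, 37.0 and 30.7 CPM in low libraries, which overlapped, with a log2 ratio of 0.24 (SE 0.08) at adjusted p = 0.0114. That call was lost without negative replicate 3 (adjusted p = 0.0665) and without low replicate 2 (adjusted p = 0.102). MRTFB, its relative, did not pass, with -0.03 (SE 0.06), and SRF rose from 69.9, 69.3 and 59.8 CPM to 79.9, 85.1 and 78.6 CPM, a log2 ratio of 0.29 (SE 0.06).

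The classic smooth muscle targets were at low levels. ACTA2, smooth muscle actin, was at 3.02, 1.94 and 2.08 CPM in negative and 3.72, 2.44 and 2.35 CPM in low libraries, and TAGLN, SM22, at 8.30, 7.77 and 5.87 CPM against 7.44, 6.48 and 6.39 CPM. Neither passed, with log2 ratios of 0.26 (SE 0.22) and -0.11 (SE 0.13). The cytoplasmic actins did rise. ACTB, beta actin, went from 3224, 3147 and 2917 CPM to 4027, 4148 and 4050.3 CPM, a log2 ratio of 0.40 (SE 0.04), and ACTG1, gamma actin, had 0.21 (SE 0.03). Of 6 actin genes, 4 were measured, 3 rose and 1 did not pass. The third was skeletal actin, ACTA1, with 17 and 57 counts in all and a log2 ratio of 1.45 (SE 0.49), whose call was lost without negative replicate 3 or without low replicate 3. MYL9, a myosin light chain, and ANKRD1, a stretch-responsive nuclear protein, rose more, with 0.70 (SE 0.06) and 1.30 (SE 0.04), and FHL1, a LIM protein, and TGFB1I1, the paxillin relative Hic-5, fell, with -1.07 (SE 0.06) and -0.81 (SE 0.06).

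Actin regulators moved both ways. Of 46 genes of filament assembly and turnover 21 rose, 14 fell and 11 did not pass, with a median of 0.10. DIAPH3, a formin, had a log2 ratio of 1.06 (SE 0.06), and among members named after their values were seen PFN1, profilin 1, had 0.41 and CFL1, cofilin 1, 0.33. Falls were led by GSN, the severing protein gelsolin, with -0.95 (SE 0.05), SSH1, a cofilin phosphatase, with -0.70 (SE 0.04), and TMSB4X, the monomer-binding thymosin beta 4, with -0.56 (SE 0.04). Thymosin beta 4 went from 1318, 1265 and 1279 CPM to 888, 865 and 862 CPM, and gelsolin from 221, 212 and 199 to 106, 114 and 109 CPM, both without overlap. Of 36 genes of actin crosslinkers, myosins and their small GTPases and kinases, 35 were measured, 17 rose, 9 fell (5 without low replicate 1) and 9 did not pass, with a median of 0.05. FSCN1, the bundling protein fascin, and SVIL, supervillin, had -0.66 (SE 0.05) and -0.58 (SE 0.04), and FLNC, filamin C, and RND3, an atypical small GTPase, had 0.81 (SE 0.04) and 0.96 (SE 0.05).

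Genes used as readouts of the YAP-TEAD pathway leaned higher. Of 22 listed, 14 rose, 4 fell and 4 did not pass, with a median log2 ratio of 0.38. CCN1 and CCN2, secreted matrix-associated proteins that are also MRTF-SRF targets, went from 428, 412 and 413 CPM to 750.0, 753 and 767 CPM and from 144, 137 and 137 CPM to 218, 215 and 220.1 CPM. Neither overlapped between groups, and the log2 ratios were 0.86 (SE 0.04) and 0.64 (SE 0.04). F3, tissue factor, and AXL, a receptor kinase, had 1.10 (SE 0.04) and 0.51 (SE 0.04), and NT5E, the ectonucleotidase CD73, fell by most, with -0.85 (SE 0.03).

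Genes listed as feedback of the ERK MAP kinase pathway were mostly lower, in a list that also holds cytokine genes. Of 20 listed, 15 fell, 3 rose and 2 did not pass, with a median log2 ratio of -0.49. DUSP6, the phosphatase that removes phosphate from ERK, went from 393, 383 and 415 CPM to 197, 199 and 197 CPM, and SPRY4, a Sprouty inhibitor of receptor signalling, from 677, 673 and 644 CPM to 332, 336 and 344 CPM. Both were lower in every low library than in any negative one, with log2 ratios of -1.004 (SE 0.04) and -0.98 (SE 0.04). DUSP4, a nuclear ERK phosphatase, had -0.92 (SE 0.03) and ETV1, an ETS factor, -1.11 (SE 0.04). DUSP5 and DUSP7 did not pass, with -0.08 and -0.04. The 3 that rose, the cytokine genes IL11 and LIF and ETV5, had 1.23, 0.46 and 0.25 and were named after their values were seen. Immediate early genes also fell more often than they rose, 12 against 6 of 22, with 4 not passing and a median of -0.16. FOS and NR4A2, an AP-1 subunit and an orphan receptor, had -1.11 (SE 0.06) and -1.46 (SE 0.08), but ATF3 and FOSL2, other bZIP factors, rose with 1.29 (SE 0.08) and 0.62 (SE 0.04).

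Cytokine genes of the NF-kB set were mostly higher. Of 26 listed, 24 were measured, 19 rose, 4 fell and 1 did not pass, with a median log2 ratio of 0.84. CXCL8, the neutrophil attractant interleukin 8, went from 28.9 ± 3.36 to 80.8 ± 3.403 CPM, and IL6, interleukin 6, from 8.06, 9.90 and 9.59 CPM to 34.0, 34.1 and 32.2 CPM. Low libraries were above negative ones throughout, and the log2 ratios were 1.49 (SE 0.06) and 1.86 (SE 0.08). PTGS2, cyclooxygenase 2, had 1.58 (SE 0.06). CSF1, the macrophage growth factor, went the other way, from 892, 864 and 801 CPM to 362, 386 and 363 CPM with -1.20 (SE 0.04). The feedback inhibitor TNFAIP3 did not pass, at 43.6 against 45.2 CPM, and NFKBIA, the gene of the inhibitor IkB alpha, had a log2 ratio of -0.34, a value picked after it was seen.

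Interferon-stimulated genes rose in a more uneven way. Of 33 listed, 31 were measured, 21 rose, 2 fell (1 without negative replicate 3, low replicate 1 or low replicate 2) and 8 did not pass, with a median log2 ratio of 0.50. OASL, a relative of the 2-5A synthetases and 1 of the 10 largest rises, went from 8.12, 8.54 and 7.70 CPM to 48.0, 45.0 and 44.2 CPM, a log2 ratio of 2.49 (SE 0.08). IFIT2, an antiviral RNA-binding protein, went from 25.7, 25.8 and 28.2 CPM to 94.5, 96.3 and 94.9 CPM, and IFIT1, which binds the 5′ ends of viral RNA, from 12.7, 12.6 and 13.3 CPM to 38.5, 39.4 and 40.9 CPM. All 3 were higher in every low library, which for OASL was a condition of its place among the largest rises. The log2 ratios were 1.84 (SE 0.05) for IFIT2, 1.62 (SE 0.07) for IFIT1 and 1.27 (SE 0.05) for IFIT3. Among members named after their values were seen, STAT2, a signalling factor, did not pass, with -0.05, and IRF9 and GBP2, the pair that fell, had -0.38 and -0.88. SLAMF7, an immune-cell receptor, and C3, complement component 3, also stood among the 10 largest rises, from 3.03 to 15.6 CPM and from 5.38 to 25.5 CPM.

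The IFIT1 promoter (chr10:89392373-89392622, plus strand) shows the response element of these genes. Capitals mark 2 matches of the interferon-stimulated response element (TTTC, any 2 bases, TTTC), the first of which begins 116 bases before the start and the second 3 bases after the end of the first. This motif was added after values were seen.
IFIT1: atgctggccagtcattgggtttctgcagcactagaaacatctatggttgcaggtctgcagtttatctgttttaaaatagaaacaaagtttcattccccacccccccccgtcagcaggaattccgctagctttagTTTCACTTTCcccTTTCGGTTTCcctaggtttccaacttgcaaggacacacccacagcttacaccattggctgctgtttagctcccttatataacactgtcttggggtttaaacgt

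Matrix genes fell more often than they rose. Of 36 listed, 32 were measured, 19 fell, 6 rose and 7 did not pass, with a median log2 ratio of -0.20. FN1, fibronectin, went from 3104, 3134 and 2843 CPM to 1379.6, 1399 and 1385 CPM, a log2 ratio of -1.13 (SE 0.04). Every low library was below every negative one, as for LAMA5, a laminin alpha chain, with -1.06 (SE 0.05). LAMA3 and LAMB1, other laminin chains, had -0.95 (SE 0.04) and -0.81 (SE 0.04). COL1A1 and COL7A1 did not pass, with 0.06 and 0.06. Among 25 proteases and inhibitors, 22 were measured, 9 rose, 11 fell and 2 did not pass. Their log2 ratios ran from -1.18 to 4.02 with a median of -0.11, and 5 rose and 1 fell by at least 2-fold. MMP1, the interstitial collagenase, had 1.21 (SE 0.06), while MMP14, the membrane-bound matrix metalloproteinase, ADAM19, a sheddase, and TIMP3, an inhibitor, had -0.68 (SE 0.04), -1.18 (SE 0.05) and -0.69 (SE 0.03). Of 16 TGF-beta response genes, 10 fell, 4 rose (2 without negative replicate 1 or 2) and 2 did not pass, with a median of -0.29. TGFBI and PMEPA1 had -0.54 (SE 0.04) and -0.73 (SE 0.05).

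Genes of glycolysis and of the hypoxia response were lower as a group. Of 27 listed, 21 fell, 4 rose and 2 did not pass, with a median log2 ratio of -0.40. NDRG1, a stress-response gene that hypoxia is known to raise, went from 3770.2, 3761 and 3494 CPM to 1200.3, 1167 and 1194 CPM, a log2 ratio of -1.63 (SE 0.04). ALDOC, aldolase C, PFKFB4, which makes the activator of phosphofructokinase, and BNIP3, a mitophagy receptor, had -0.91 (SE 0.06), -0.79 (SE 0.05) and -0.71 (SE 0.04). NDRG1 libraries did not overlap, whereas GAPDH and GPI, glycolytic enzymes that did not pass, were at -0.04 each. Cholesterol synthesis and uptake genes also mostly fell. Of 27 listed, 19 fell, 2 rose and 6 did not pass, with a median of -0.28. SCD, the desaturase that makes oleate, had -0.76 (SE 0.03), MSMO1, a sterol oxidase, -0.70 (SE 0.07), HMGCS1, the synthase at the head of the pathway, -0.59 (SE 0.04), and INSIG1, the sterol-sensing anchor, -0.51 (SE 0.04). CYP51A1 and EBP did not pass, with -0.12 and 0.15.

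Nuclear and mitochondrial genes of respiration differed in direction. Of 29 nuclear genes of oxidative phosphorylation, 19 rose, none fell and 10 did not pass, with a median log2 ratio of 0.22. ATP5MC1, a ring subunit of ATP synthase, had 0.85 (SE 0.07), and UQCRQ of complex III 0.48 (SE 0.05). The mitochondrially encoded messages went against them, with 8 of 13 lower, 1 higher and 4 not passing and a median of -0.18. The count that rose was 2 or 3 without any 1 of negative replicates 1 and 2, low replicate 1 and the high replicates. MT-CO1, a subunit of cytochrome oxidase, had -0.39 (SE 0.03). Of 30 ribosomal protein genes 16 rose, none fell and 14 did not pass, with a median of 0.10, and as a class they took 1.83% ± 0.0494 of counts in negative and 2.02% ± 0.00564 in low libraries (SD, n = 3). Of 22 genes of the unfolded protein and integrated stress responses, 14 rose, 3 fell and 5 did not pass, with a median of 0.20. PSAT1, of serine synthesis, DDIT3, the stress factor CHOP, HSPA5, the chaperone BiP, and CALR, calreticulin, had 1.504 (SE 0.06), 1.17 (SE 0.08), 0.63 (SE 0.03) and 0.40 (SE 0.04).

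A pair of abundant nuclear noncoding RNAs was lower. NEAT1, the scaffold of paraspeckles, went from 6848, 6915 and 6942 CPM to 2636, 2618 and 2649 CPM, a log2 ratio of -1.39 (SE 0.04), and MALAT1, a speckle-associated RNA, from 19862, 20233 and 22346 CPM to 12390.5, 12378 and 12689.5 CPM, a log2 ratio of -0.74 (SE 0.04). Neither overlapped between groups, and SNHG1, a host gene of small nucleolar RNAs, rose with 0.74 (SE 0.05). These are from a list of 18 noncoding and structural RNAs, of which 12 were measured, 3 rose, 3 fell and 6 did not pass. The 2 largest rises of genes with a mean of at least 5 CPM were mitochondrial ribosomal RNAs, which ribosomal RNA depletion commonly targets. MT-RNR1 was at 2.37, 3.82 and 1.96 CPM in negative, 102, 80.0 and 27.5 CPM in low and 2.75, 3.66 and 6.07 CPM in high libraries, and MT-RNR2 at 2.73, 3.82 and 3.42, 108, 86.4 and 31.7 and 3.45, 4.90 and 9.60 CPM. Low replicate 3 was well below low replicates 1 and 2 for both, and the efficiency of depletion was not tested.

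LifeAct high libraries are set beside these as a further level. The comparisons share libraries, so only each gene's own values are given, and of all tested genes 50.3% differed between high and low. For many of the large changes the low group stood between the others. ITGA10 averaged 252, 26.5 and 5.47 CPM in negative, low and high libraries, NDRG1 3675, 1187 and 376, and SOX4 428, 102 and 35.7. IFIT2 averaged 26.6, 95.2 and 357 CPM and CXCL8 28.9, 80.8 and 425. From low to high ITGA10 had a further log2 ratio of -2.25 (adjusted p = 8.43e-19), IFIT2 1.91 (adjusted p = 7.72e-24) and CXCL8 2.39 (adjusted p = 4.64e-24). RRM2 had 0.52 (adjusted p = 6.76e-11) and CDC6 0.89 (adjusted p = 4.64e-15), to 169 ± 4.81 and 139 ± 0.662 CPM.

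Other genes were highest in the low group. H2BC11 averaged 38.2, 107 and 74.2 CPM, with a log2 ratio of high over low of -0.53 (adjusted p = 1.33e-09), and H3C2 averaged 82.0, 208 and 145 CPM, with -0.52 (adjusted p = 3.26e-11). The share of counts from histone genes was 0.184% in negative, 0.357% in low and 0.233% in high libraries. MKI67 averaged 535, 1088 and 992 CPM and differed less between low and high, by a log2 ratio of -0.13 (adjusted p = 0.00353). E2F2 averaged 1.85, 9.88 and 9.50 CPM, and its high over low ratio of -0.05 did not pass (adjusted p = 0.731). TNFAIP3, level with negative cells in the low group, was at 262, 244 and 248 CPM in high libraries against a mean of 45.2 in low (log2 ratio 2.47, adjusted p = 1.23e-24).

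**Figure D4:**
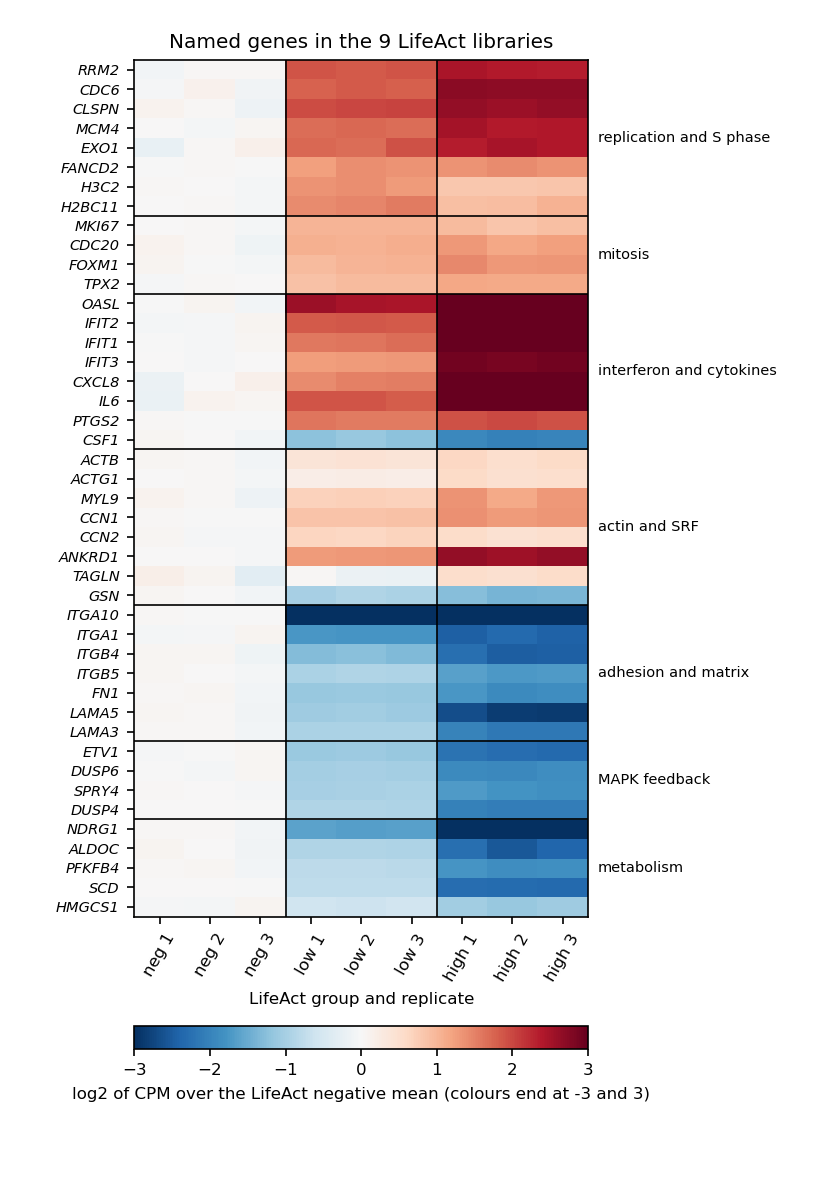
Log2 CPM of 44 genes (rows) in the 9 LifeAct libraries (columns) relative to each gene's mean in the negative libraries, with colours that end at -3 and 3. ITGA10 is past the lower colour end in both LifeAct groups. The cell cycle rows are raised in both LifeAct groups, and the histone rows are raised most in the 3 low libraries.

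Cells of the same line with caMKL1, a form of MKL1 labelled caMKL1 overexpression, give a comparison that shares no library with LifeAct low against negative. It differs in RNA selection, since that RNA was selected for poly(A). Of 18893 genes tested there, 31.9% were higher and 33.0% lower with caMKL1 than in its control. The genotype labels of the 3 caMKL1 replicates read caMKL1, caMKL2 and caMKL3, while their titles all give caMKL1. RRM2 and CDC6 were lower with caMKL1. RRM2 averaged 223 CPM in control and 35.7 CPM in caMKL1 libraries, a log2 ratio of -2.64 (adjusted p = 8.60e-11), and CDC6 152 and 32.8 CPM, a log2 ratio of -2.21 (adjusted p = 5.64e-10). ITGA10 was lower with caMKL1 too, at 5.03 and 1.09 CPM, a log2 ratio of -2.18 (adjusted p = 7.91e-06). Its level in that control was far under the 252 CPM of LifeAct negative libraries. RRM2 and CDC6 in that control were above their means in LifeAct negative (32.0 and 21.5 CPM) and LifeAct low libraries (118 and 75.0 CPM). The experiments were scaled apart, and these differences in level were not tested. SLITRK6 did not pass, at 0.877 and 0.554 CPM and a log2 ratio of -0.64 (adjusted p = 0.168). ACTA2, which did not pass with LifeAct, averaged 0.681 and 2120.3 CPM, a log2 ratio of 11.59 (adjusted p = 4.83e-13). Of 17703 genes tested in both, 5310 were higher in LifeAct low cells, and of these 41.8% were lower and 25.6% higher with caMKL1, beside 34.7% and 30.2% of all 17703. Counted from the other side, 2222 genes make up 36.1% of those lower with caMKL1, and 1361 make up 25.5% of those higher with it, beside 30.0% of all 17703. Of the 4355 genes lower in LifeAct low cells, 37.2% were lower and 33.5% higher with caMKL1, which is 26.3% and 27.3% of the genes called there, beside 24.6% of all 17703.

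Promoter letters were counted over whole lists, as a description. RefSeq promoters of 300 bases (250 before the start to 50 after it) were at hand for 12211 of the tested genes, for 435 of the 1193 genes at least 2-fold higher and for 388 of the 1014 at least 2-fold lower. E2F letters (GGCGGGAA, GGCGCGAA or GCGCGAAA on either strand, the last pair overlapping) stood in 4.38% of all 27305 promoters, 6.62% of those of tested genes, 14.3% of those at least 2-fold higher and 3.09% of those at least 2-fold lower. By list the share was 42.5% of 40 replication promoters, 47.1% of 17 repair promoters and 40.0% of 50 histone promoters. CCAAT, on either strand, stood in 35.7% of all promoters, 76.7% of 30 mitosis promoters and 86.0% of 50 histone promoters. The cell cycle homology region stood in 15.4% of all promoters, 70% of mitosis promoters and 2.5% of replication promoters. The interferon-stimulated response element stood in 3.65% of all promoters and 66.7% of 24 interferon-stimulated promoters, and the SRF CArG box in 1.29% of all and 33.3% of 30 MRTF-SRF promoters. The lists were written by function, so the list shares describe the lists and not the response. The sets at least 2-fold higher and lower were taken from the response, and their shares were not tested.

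**Figure D5:**
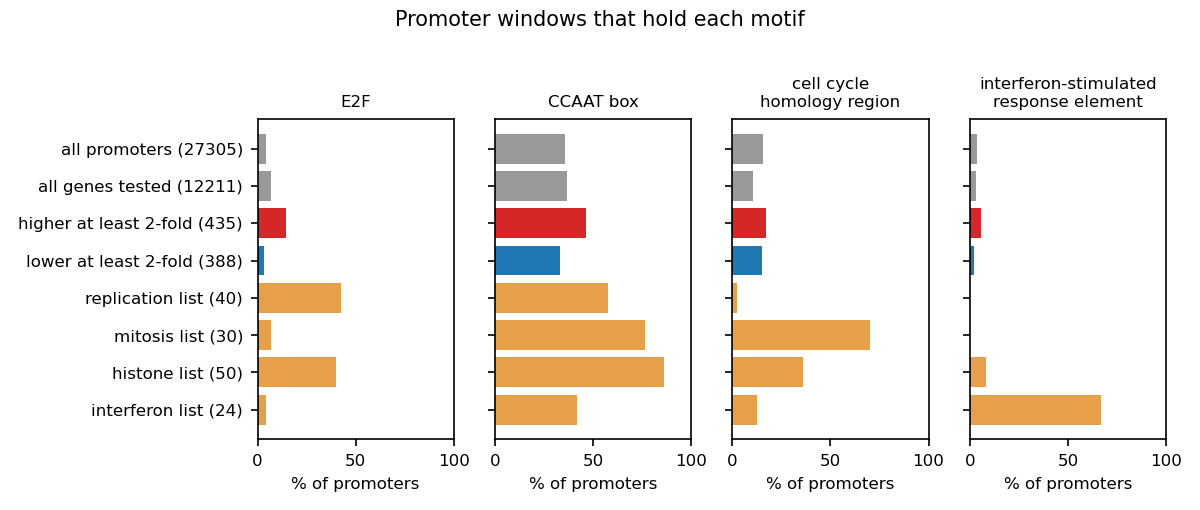
Percent of promoters (300 bases around the RefSeq start) that hold the E2F, CCAAT, cell cycle homology or interferon response letters, for all promoters, tested genes, genes at least 2-fold higher or lower and 4 gene lists. E2F letters are in 42.5% of replication promoters and 4.38% of all promoters, and cell cycle homology letters in 70% of mitosis promoters.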

How the data were processed

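The authors deposited raw counts per gene name, 1 table for the 9 LifeAct libraries, made, per the file headers, with featureCounts 2.0.1 against Ensembl 103 (GRCh38), with no strand option, so overlapping antisense genes cannot be told apart. TRIzol RNA was, per the labels' protocols, depleted of ribosomal RNA and read as 150 bp pairs on a HiSeq. The submitters' processing notes also list DESeq2, with no word on where it was used. The deposited gene lengths served only for RPKM. All sample columns were matched to labels, and 0 were left unmapped.

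Genes were filtered (edgeR filterByExpr, minimum count 10), scaled by TMM and tested by quasi-likelihood in edgeR 4.0.16 (R 4.3.3), with 1 mean for each of the 3 LifeAct groups and Benjamini-Hochberg adjustment over 21869 genes at 0.05. Log2 ratios use a prior count of 0.125, and an SE is the ratio over the square root of F. The caMKL1 and control libraries, deposited as counts in a table of their own, were fitted the same way. On simulated data of this comparison with 21869 genes, 64.6%, 81.8% and 95.3% of genes changed by 1.5, 2 and 4-fold were recovered, and 0.0286% of unchanged genes were called. Only 65, 66 and 64 genes were so changed, up and down in balance, and every gene was given the same spread. In the real comparison 49.6% of genes were called and spread differs by gene, so these shares are not its error rates.

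The 36 gene lists, the motifs and the named genes were chosen with earlier results of these data known, so list counts are descriptions. Named were fixed MRTF-SRF genes and the 4 genes RRM2, CDC6, ITGA10 and SLITRK6, the 10 largest rises and 10 largest falls (adjusted p under 0.05, a mean of at least 5 CPM, groups not overlapping), 4 members of each list with the smallest p and 1 or 2 that did not pass, and 5 genes like SLITRK6. Genes outside it are said to have been named after their values were seen. Results for some genes that the rule allows are not reported here. Alternatives were DESeq2 1.42.0, limma 3.58.1 voom, other scalings, no filter, only the 6 libraries, a replicate block, leaving out mitochondrial and structural RNAs, and leaving out each library. Same-numbered libraries did not deviate together (correlations of -0.00628 to 0.00662 over all pairs of numbers), so the numbers were not taken as pairs.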

Additional observations from a re-analysis of the deposited data

How the results depend on the processing

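The count of genes that differed was 10846, and stayed within 1.5 times under every alternative run, from 9514 with DESeq2 to 11206 with a LifeAct high library left out. The count at 2-fold or more was 2207, and ran from 1969 with only the 6 libraries to 2728 with no filter. Leaving out 1 library in turn gave 9705 to 11206 and 2141 to 2391, with 10403 genes called without negative replicate 3. With the replicate block, whose numbers do not pair the libraries, the counts were 10851 and 2201. Scaling to library totals moved the split to 6433 higher and 4559 lower (58.5% higher, against 52.3%), with a median log2 ratio of 0.04 over all genes. Of 3565 values of 211 genes under the alternatives, 3488 kept direction and side of the threshold, 7 lost the call, 70 gained it and 0 reversed. Lost calls were those of MRTFA and ACTA1 given above and of KDR with DESeq2, without negative replicate 2 and without low replicate 1. ATR gained a call under 6 settings other than a left-out library. Of 1224 counts of list members, 1193 stayed within 1.5 times, 14 of the others moved with a setting and 17 with a left-out library, given beside those lists for the lists described. By setting, members that fell went from 8 to 5 mitochondrial messages and from 2 to 1 interferon-stimulated genes with DESeq2. With library totals, 1 interferon-stimulated gene and 5 crosslinker genes fell, and 4 cholesterol genes and 4 mitochondrial messages rose. Mitochondrial messages that rose were 4 with no filter or with only the 6 libraries and 3 with the replicate block. Leaving out mitochondrial and structural RNAs removes these lists. The 1 endothelial marker that rose, KDR, was 0 where its call was lost, and no list's median changed sign with the scaling. At this depth genes at a few CPM or less, such as NUSAP1, ACTA1 and KDR, were measured with few counts.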

Other observations

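Epithelial and mesenchymal genes did not move as blocks. Of 20 epithelial genes, 17 were measured, 8 rose, 4 fell (2 without negative replicate 1 or low replicate 2) and 5 did not pass. CLDN1, a tight junction claudin, rose from 1.78, 1.29 and 1.59 CPM in negative to 5.20, 5.06 and 4.91 CPM in low libraries, a log2 ratio of 1.69 (SE 0.17), and KRT81, a hair keratin, had 0.91 (SE 0.05), while KRT19, a simple epithelial keratin, fell with -0.69 (SE 0.05). The groups did not overlap for CLDN1. KRT17, a basal keratin, had 1 count in the negative libraries together and 120 in the low libraries, and averaged 18.1 CPM in the high libraries. Of 15 mesenchymal genes, 12 were measured, 5 rose, 5 fell and 2 did not pass. Their log2 ratios ran from -1.06 to 0.73, with a median of -0.11. AXL, given above, was among those that rose, with 0.51 (SE 0.04). Among those that fell, VIM, vimentin, had -0.36 (SE 0.04) and ZEB1, a repressor of epithelial genes, -0.33 (SE 0.04). S100A4, a calcium-binding protein linked to motility, had -0.85 (SE 0.04).

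Genes known for lung metastasis of this line divided. Of 19 listed, 16 were measured, 8 fell, 5 rose and 3 did not pass, with a median log2 ratio of -0.30. LTBP1, which binds latent TGF-beta, had -1.14 (SE 0.05) and EREG, epiregulin, -0.59 (SE 0.04), against PTGS2 and MMP1, which rose as given above. Of 20 p53 targets, 9 rose, 6 fell and 5 did not pass. BAX, a pore-forming death protein, had 0.50 (SE 0.06) and TP53INP1, an autophagy regulator, -0.77 (SE 0.08). Of 26 growth factor and receptor genes, 25 were measured, 8 rose, 12 fell and 5 did not pass, with HBEGF, a ligand that is shed, at 0.79 (SE 0.06) and IGF1R, the insulin-like growth factor receptor, at -0.53 (SE 0.04). PECAM1, an adhesion molecule of endothelium, fell from 93.0, 93.9 and 90.6 CPM to 29.4, 30.8 and 29.7 CPM, without overlap.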
